A study of Mus musculus with 4 samples.

Results

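This account covers 9 genes of the junctions that join one endothelial cell to the next: *Cdh5*, *Ctnnb1*, *Cldn5*, *Ocln*, *F11r*, *Jam2*, *Jam3*, *Esam* and *Tjp1*. They were chosen by gene symbol, and all 9 were found among the 18373 genes of the deposited table. The cells were primary mouse liver sinusoidal endothelial cells (LSECs), the fenestrated cells that line the smallest vessels of the liver. They were isolated from livers of 8-week-old Balb/c mice by perfusion and enzymatic digestion, and the study's methods add a density gradient and selection with magnetic beads against the endothelial surface protein CD146. They were cultured for 24 h on collagen and transfected for 48 h, and the labels place them at day 3. There were 2 libraries from cells given a control siRNA (NC) and 2 from cells given siRNA against the long non-coding RNA *Airn* (si*Airn*), and RNA was sequenced as single reads of 50 bases. The labels call the replicates biological but do not say whether they came from separate mice, so p-values measure only the spread between these libraries. The design text speaks of separate siRNAs. The titles give both si*Airn* libraries the same name with a running number after it, as for replicates, and do not state whether both received the same siRNA. The comparison asks whether the RNA of junction genes differed between LSECs given si*Airn* and LSECs given NC.

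Endothelial cells hold on to each other through adherens junctions and tight junctions. In adherens junctions VE-cadherin binds its like on the next cell and is tied to actin through catenins, whereas in tight junctions claudins, occludin and the immunoglobulin-like junctional adhesion molecules (JAMs) narrow the gap and are held by plaque proteins such as ZO-1. Liver sinusoids are unusually open vessels, with pores through the cells and no continuous basement membrane, and the loss of these features when LSECs are cultured or the liver scars is called capillarization.

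The targeted RNA was checked first. *Airn* had 7 and 3 counts in the NC libraries and 11 and 9 counts in the libraries labelled si*Airn*, which did not pass the filter on low counts. The counts were not lower in the latter, and without that filter the log2 fold change was 0.95 (adjusted p = 0.438 in edgeR, and between 0.313 and 0.760 in the other fits that gave it an adjusted p). Directions below therefore refer to the libraries labelled si*Airn* as the labels give them. Library totals ranged from 17308382 to 18371959 estimated counts. Defining genes of the labelled cell type were present: all 12 LSEC markers (such as *Stab2* and *Lyve1*) and all 17 pan-endothelial markers (such as *Pecam1*) were detected well enough to be tested.

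Of the 9 junction genes, *Jam2*, *Cldn5*, *Cdh5* and *Esam* (4 genes) had less RNA in the libraries labelled si*Airn*, *Tjp1* had more, and *F11r*, *Jam3*, *Ctnnb1* and *Ocln* did not pass the test. The 4 lower genes encode transmembrane proteins, as do the uncalled *F11r*, *Jam3* and *Ocln*, and the higher gene encodes a cytoplasmic plaque protein. Outside the 9 genes, *Cdh2*, *Cldn12* and *Cxadr*, which also encode transmembrane proteins, were called higher. All 9 passed the filter on low counts, and a gene was called at an adjusted p under 0.05, from the quasi-likelihood test of edgeR, adjusted by Benjamini-Hochberg over all 13628 genes tested. Over all tested genes 16.8% were called, 8.56% as lower and 8.27% as higher, so 5 of 9 stands beside a background of 16.8%. At the study's own threshold, a fold change over 1.4 with an unadjusted p under 0.05, *Jam2*, *Cldn5* and *Cdh5* passed, beside 9.96% of all genes. The 2 values of a group lay wholly above or below those of the other group for all 9 genes, which was also so for 62.7% of all tested genes. The median log2 fold change of the 9 genes was −0.17, and that of all tested genes was 0.00126.

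**Figure D1:**
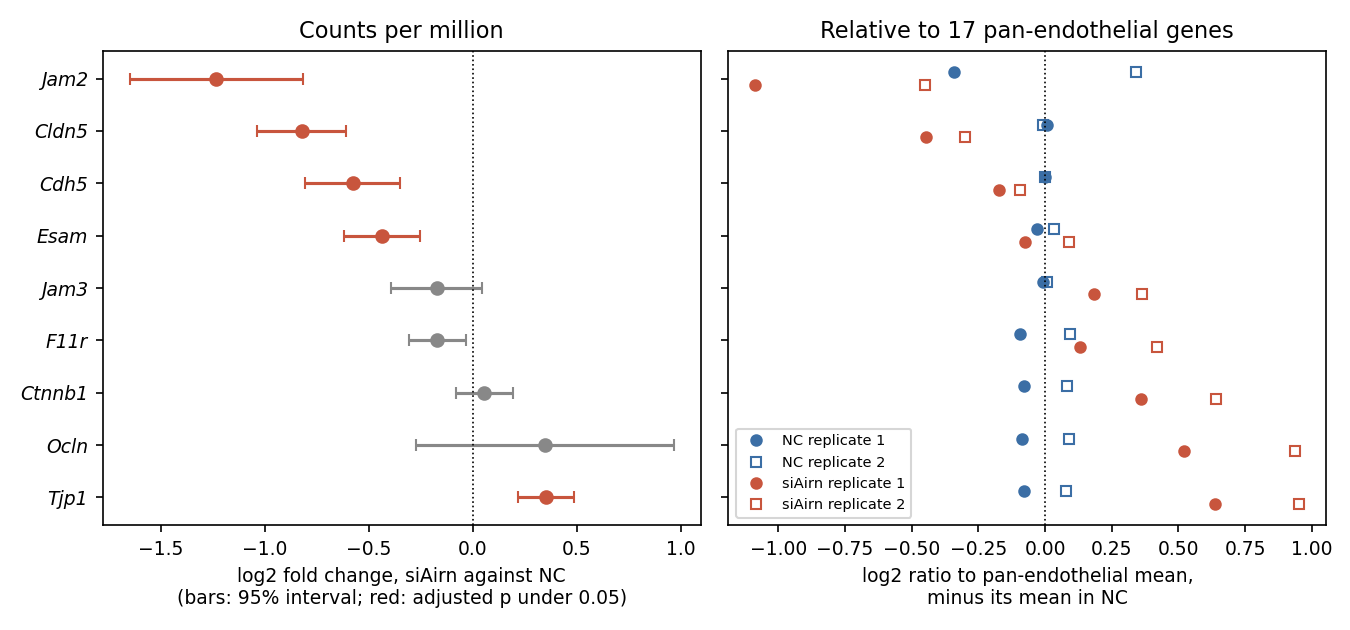
Left, log2 fold change of each junction gene between libraries labelled siAirn and NC (points, fitted values from 2 libraries a group; bars, 95% interval; red, adjusted p under 0.05). Right, log2 of each gene's CPM over the mean of 17 pan-endothelial genes in the same library, set to 0 at the NC mean (4 libraries). *Jam2* lies farthest left in both panels, and *Tjp1* lies farthest right in the right panel and is the only called gene to the right in the left panel.

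*Cdh5* encodes VE-cadherin, the adhesion receptor of endothelial adherens junctions, and was lower in the libraries labelled si*Airn*. Its level in CPM (counts scaled to the size of the library, comparable between libraries for the same gene) was 2625 and 2322 in NC and 1794 and 1524 in si*Airn*. All values of the second group lay under those of the first. The log2 fold change was −0.58 (SE 0.096, 95% interval −0.80 to −0.35, adjusted p = 0.0134), and *Cdh5* fell by 32.9%. *Cdh5* is on the forward strand of chromosome 8 (GRCm38, chr8:104101625-104144511), and no exon of another annotated gene overlaps its exons.

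*Ctnnb1* encodes β-catenin, which binds the tail of VE-cadherin and also carries Wnt signals to the nucleus. It had 543 and 538 CPM in NC and 569 and 555 CPM in si*Airn*. The groups did not overlap, but the log2 fold change of 0.06 (SE 0.057, adjusted p = 0.530) did not pass the test, and its 95% interval ran from −0.08 to 0.19. A change of the size seen for *Cdh5* lies outside that interval. Exons of *Ulk4* on the opposite strand cover part of this gene (chr9:120929216-120960507, forward strand), in all 14.6% of its exonic bases lie under exons of the other strand, and whether the counting used strand is not given in the sources used here.

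Of the other catenins that link the cadherin to the cell interior, 1 was called. *Ctnna1* (α-catenin, which connects β-catenin to actin) had a log2 fold change of 0.11 (adjusted p = 0.229), and *Ctnnd1* (p120-catenin, which keeps cadherin at the membrane) had 0.16 (adjusted p = 0.137). Much of *Ctnnd1* is shared with an annotated neighbour on the same strand, so its counts are uncertain. *Jup* (plakoglobin, a relative of β-catenin that can take its place) fell by 0.31 on the log2 scale (adjusted p = 0.0286). *Ptprb* (VE-PTP, a phosphatase that binds VE-cadherin) overlapped between groups, with a log2 fold change of −0.14 (adjusted p = 0.411), and of −0.42 once transcript GC content and length were corrected for, which did not pass the threshold either.

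N-cadherin went the other way from VE-cadherin. *Cdh2*, which encodes this cadherin of stellate cells, hepatocytes and, to a lesser degree, endothelium, had 132 and 152 CPM in NC and 192 and 259 CPM in si*Airn*. The groups did not overlap, and the log2 fold change was 0.66 (SE 0.14, adjusted p = 0.0252). The summed level of 12 stellate cell and fibroblast markers was also higher in si*Airn* (1428 and 1860 CPM) than in NC (1172 and 1383 CPM), with 4 of the 12 called higher and none at 0, and without si*Airn* replicate 1 or 2 it was 11 or 2 of the 12, and without either NC library 0. Of 10 tested hepatocyte markers 1 was called higher, and the summed level of that list was 516 and 670 CPM in NC and 736 and 952 CPM in si*Airn*. The part of stellate cells and hepatocytes in the difference in *Cdh2* was not tested. Of the other genes of the adherens junction list, *Vcl* (vinculin, which reinforces junctions under tension) rose by 0.43 and *Nectin3* (an adhesion molecule that starts junctions) by 0.35 on the log2 scale (adjusted p = 0.0177 and 0.0498), and exons of *Ap3m1* on the opposite strand cover 25.5% of the exonic bases of *Vcl*. *Nectin3* was not called with DESeq2, with upper-quartile scaling, without the filter or with limma. Of the 17 listed genes, 2 were called lower and 3 higher.

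*Cldn5* encodes claudin-5, the main sealing claudin of endothelium. It had 220 and 193 CPM in NC and 123 and 110 CPM in the libraries labelled si*Airn*, with no overlap. The log2 fold change was −0.82 (SE 0.091, 95% interval −1.04 to −0.61, adjusted p = 0.00574), and the level fell by 43.4%. *Cldn5* ranked 101 by p among all tested genes, the highest rank of the 9. It is on the forward strand of chromosome 16 (chr16:18776847-18778262), in a stretch with no other annotated exon.

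*Ocln* encodes occludin, a tight junction protein of epithelia and of tight endothelial barriers, and was present at few counts. It had 35 and 37 counts in NC and 45 and 48 counts in si*Airn*, or 2.04 and 2.05 against 2.49 and 2.71 CPM. The groups did not overlap, but the log2 fold change of 0.35 (SE 0.26, adjusted p = 0.391) did not pass the test. Its 95% interval, −0.27 to 0.97, holds both no change and a rise as large as that of *Cdh2*.

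Among the other claudins, *Cldn12* (a claudin without the tail that binds ZO-1) had 56.6 and 63.3 CPM in NC and 80.1 and 98.9 CPM in si*Airn*, and rose by 0.58 on the log2 scale (adjusted p = 0.0196). In terms of level per transcript length, in the deposited FPKM (fragments per kilobase of transcript, scaled to the library), it stood at 16.4 in NC against 157 for *Cldn5*. *Cldn3*, *Cldn1*, *Cldn7* and *Cldn15* were tested and not called, and the 3 other listed claudins were too low to test.

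*Jam2* encodes JAM-B, a JAM of vessels and lymphatics that pairs with JAM-C on neighbouring cells and on leukocytes. It was the gene with the largest fold change of the 9, with 119 and 169 CPM in NC and 54.6 and 68.4 CPM in the libraries labelled si*Airn*. The lower NC value still lay above both values of the other group, although the NC libraries differed from each other more, as a ratio, in this gene than in the other 8. The log2 fold change was −1.23 (SE 0.18, 95% interval −1.65 to −0.82, adjusted p = 0.00946), and *Jam2* fell by 57.4%. *Jam2* lies at chr16:84774123-84825928 on the forward strand and shares no exonic bases with another annotated gene.

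*Jam3* encodes JAM-C, the partner of JAM-B, and did not pass the test. It had 43.0 and 38.4 CPM in NC and 37.8 and 34.4 CPM in si*Airn*. The groups were close but did not overlap, with a log2 fold change of −0.17 (SE 0.093, 95% interval −0.39 to 0.05, adjusted p = 0.238). Exons of the antisense gene *Gm48796* cover 36.2% of its exonic bases (chr9:27097384-27155421, reverse strand), so reads of both genes may be mixed.

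*F11r* encodes JAM-A, the JAM that endothelium shares with epithelia, platelets and leukocytes. It had 305 and 307 CPM in NC and 274 and 270 CPM in si*Airn*, and the replicates within a group were close. Its log2 fold change of −0.17 (SE 0.058, 95% interval −0.31 to −0.03) had an unadjusted p of 0.0225 and an adjusted p of 0.0887. It was thus not called, and it was the only uncalled gene of the 9 whose interval did not include 0. *F11r* lies at chr1:171437535-171464603 on the forward strand.

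*Esam* encodes an endothelial adhesion molecule related to the JAMs, found at endothelial tight junctions and on platelets. It had 459 and 424 CPM in NC and 343 and 309 CPM in the libraries labelled si*Airn*, with no overlap. The log2 fold change was −0.44 (SE 0.076, 95% interval −0.62 to −0.26, adjusted p = 0.0148), and *Esam* fell by 26.1%. *Esam* lies at chr9:37528078-37538319 on the forward strand. A further relative of the family, *Cxadr* (the coxsackievirus and adenovirus receptor), rose by 0.63 on the log2 scale, from 20.6 and 24.4 CPM to 30.4 and 39.6 CPM (adjusted p = 0.0302). Of the 15 tested transmembrane genes of tight junctions, 3 were called lower, all of them among the 9 genes, and 2 higher.

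*Tjp1* encodes ZO-1, the plaque protein that ties claudins, occludin and JAMs to actin, and it was higher in the libraries labelled si*Airn*. It had 575 and 568 CPM in NC and 728 and 729 CPM in si*Airn*. The gap between the groups was far larger than that between replicates. The log2 fold change was 0.35 (SE 0.056, 95% interval 0.22 to 0.48, adjusted p = 0.0124), a rise of 27.6%. The gene lies on the reverse strand of chromosome 7 (chr7:65296165-65527781) and shares no exonic bases with another annotated gene.

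Other plaque genes were called besides *Tjp1*. Of 17 tested plaque genes, edgeR called 6 higher and none lower, beside 8.27% and 8.56% of all tested genes. At an unadjusted p under 0.05 it was 8 higher and 0 lower, and DESeq2 called 7 and 0. With the correction for GC content and length described below, 3 were called higher and 0 lower. The list had its median log2 fold change at 0.23 without that correction. The 6 called higher without it were *Tjp1*, *Prkci*, *Mpp5*, *Pard3* (a polarity scaffold that JAMs bind), *Amot* (angiomotin, which binds polarity proteins) and *Mpdz* (MUPP1, a scaffold with many PDZ domains). *Pard3* had 18.8 and 18.1 CPM in NC and 30.0 and 36.2 CPM in si*Airn*, and rose by 0.84 on the log2 scale (adjusted p = 0.00856). *Amot* rose by 0.57 and *Mpdz* by 0.50 on the log2 scale, both with an adjusted p of 0.0129. *Cgnl1* (paracingulin, a plaque protein) was not called, with a log2 fold change of −0.19 (adjusted p = 0.191).

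The GC content and length of transcripts moved with these differences. Across tested genes the Spearman correlation of log2 fold change was −0.333 with GC content and 0.364 with transcript length, which is a description over genes that share the same 4 libraries. The longest annotated transcript of *Tjp1* has 7049 bases and 46.8% GC, whereas that of *Cldn5* has 1416 bases and 60.5% GC. After a correction for both features per library, *Tjp1* had a log2 fold change of 0.14 and an adjusted p of 0.133 (range over its 11 alternatives other than leaving out a library, 3.42e-05 to 0.133), and *Esam* had −0.28 and an adjusted p of 0.0868 (range 2.27e-05 to 0.0968). Both were then no longer called. *Cdh5* (−0.55), *Cldn5* (−0.59) and *Jam2* (−1.33) were still called. In the plaque list 3 genes were called higher under the correction, and of the 6 called without it only *Pard3* was among them. Of the other genes named in this text as called, *Erg*, *Cdh2*, *Jup*, *Nectin3*, *Cxadr*, *Ets1*, *Apc*, *Rapgef2*, *Rapgef6* and *Krit1* were no longer called either. The differences of *Cdh2* (0.59) and *Erg* (−0.41, and −0.44 without the correction) stayed about as large, whereas those of *Apc* (0.03) and *Nectin3* (0.08) came close to 0. The correction also moved the split of calls over all genes, of which 49.1% were higher without it and 35.5% with it.

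The sequences just before the start sites of *Cldn5* and *Tjp1* are shown because these genes of the same junction, a strand protein and its scaffold, moved in opposite directions. Of the 9 genes, *Cldn5*, *Tjp1*, *Ctnnb1*, *F11r* and *Ocln* were matched in the RefSeq table of promoters (GRCm38.p6). Each run gives the 250 bases before a start site on the gene's strand, chr16:18776597-18776846 (forward) for *Cldn5* and chr7:65371245-65371494 (reverse) for *Tjp1*, the latter at a start inside the annotated span of the gene. Capitals mark GGAA or its complement TTCC, the core bound by ETS factors such as ERG, which keep endothelial genes on.
Cldn5: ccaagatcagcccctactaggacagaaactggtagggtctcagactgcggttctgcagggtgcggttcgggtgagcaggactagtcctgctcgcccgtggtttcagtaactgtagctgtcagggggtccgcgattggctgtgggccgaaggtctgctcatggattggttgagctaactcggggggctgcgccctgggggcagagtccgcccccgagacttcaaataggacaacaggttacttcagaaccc
Tjp1: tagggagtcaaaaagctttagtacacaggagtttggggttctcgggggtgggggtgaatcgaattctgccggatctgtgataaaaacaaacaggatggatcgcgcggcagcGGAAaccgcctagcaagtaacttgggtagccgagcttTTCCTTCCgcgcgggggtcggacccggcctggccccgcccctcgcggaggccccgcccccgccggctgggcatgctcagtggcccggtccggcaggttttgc
GGAA, searched on both strands, matched 3 times in the *Tjp1* window, starting 139, 102 and 98 bases before the start site, and not in the *Cldn5* window, while 93.4% of all 32851 promoter windows in the table hold it. CACCC, a core bound by KLF factors, matched 2 times in each window and is in 52.0% of all windows. The longer ETS motif CCGGAAG, which contains the GGAA core, is in 6.9% of all windows. The SOX motif ACAAT is in 27.7%, the FOX motif GTAAACA in 3.2%, the AP-1 motif TGANTCA in 6.7%, the TCF motif CTTTGAT in 3.2%, the GATA motif AGATAA in 10% and the E-box CANNTG in 66.2% of them. These motifs matched neither of the printed windows on either strand. These matches describe letters in the windows only.

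Several transcription factors of endothelium differed as well. Of 17 listed, 4 were called lower and 1 higher, beside 8.56% and 8.27% of all tested genes, with a median log2 fold change of −0.18. With the correction for GC content and length, 3 were called lower and 0 higher. Of the 17, 2 also belong to the pan-endothelial markers. *Sox18*, a SOX factor of vessel development, had 149 and 155 CPM in NC and 91.5 and 79.7 CPM in si*Airn* (log2 fold change −0.83, adjusted p = 0.00496). *Klf4*, a shear-responsive KLF factor, fell by 0.84 (adjusted p = 0.0145) and *Gata4*, a master factor of sinusoidal identity, by 0.54 on the log2 scale (adjusted p = 0.00709). *Ets1*, an ETS factor, rose by 0.34 (adjusted p = 0.0202). The fourth lower gene was *Erg*.

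Compared per transcript length, *Cdh5* was the most abundant of the 9 genes in both groups. Its mean was 631 ± 56.6 FPKM (SD, n = 2) in NC and 435 ± 53.4 in si*Airn*. *Esam* came next, at 239 ± 13.7 and 181 ± 14.2 FPKM. In NC the order went on with *Ctnnb1* (158 ± 1.44), *Cldn5* (157 ± 14.9), *F11r* (128 ± 0.382), *Tjp1* (83.7 ± 0.919), *Jam2* (30.5 ± 7.24), *Jam3* (21.7 ± 1.78) and *Ocln* (0.605 ± 0.035). Only *Ctnnb1* and *Cldn5* overlapped as neighbours in that order. In si*Airn* the order was *Ctnnb1* (167 ± 3.69), *F11r* (117 ± 2.32), *Tjp1* (109 ± 0.877), *Cldn5* (91.5 ± 8.48), *Jam3* (19.8 ± 1.48), *Jam2* (13.3 ± 2.01) and *Ocln* (0.84 ± 0.028), and no neighbours overlapped. *Cldn5* thus moved from above to below both *F11r* and *Tjp1*, and *Jam2* moved from above to below *Jam3*. These orders are in FPKM not corrected for GC content and length.

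**Figure D2:**
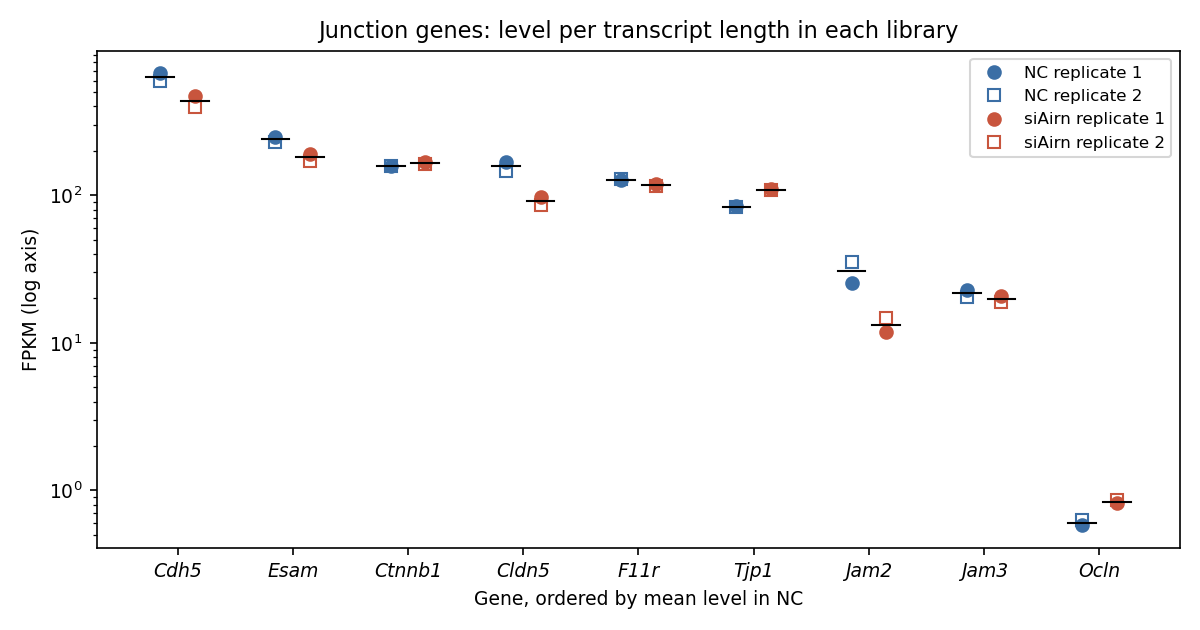
FPKM (log axis) of the 9 junction genes in each of the 4 libraries, ordered by mean level in NC (blue, NC; red, labelled siAirn; filled circles, replicate 1; open squares, replicate 2; black lines, group means). *Cdh5* is highest and *Ocln* lowest in both groups, and *Cldn5*, *Tjp1*, *Jam2* and *Jam3* change places.

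Ratios within each library show these shifts without any scaling between libraries. The FPKM ratio of VE-cadherin to β-catenin (*Cdh5* to *Ctnnb1*) was 4.22 and 3.76 in NC and 2.79 and 2.42 in si*Airn*. That of claudin-5 to ZO-1 (*Cldn5* to *Tjp1*) was 1.99 and 1.76 in NC and 0.886 and 0.786 in si*Airn*. In uncorrected FPKM the RNA of *Cldn5* thus exceeded that of *Tjp1* in NC and not in si*Airn*. That of JAM-B to JAM-C (*Jam2* to *Jam3*) was 1.10 and 1.74 in NC and 0.567 and 0.782 in si*Airn*. None of these ratios overlapped between groups. *Esam* to *F11r* also fell without overlap, from 1.95 and 1.79 to 1.61 and 1.49. The lower genes did not keep one ratio among themselves. *Cdh5* to *Esam* stood at 2.69 and 2.57 in NC and 2.47 and 2.32 in si*Airn*, while *Cdh5* to *Cldn5* went up, from 4.01 and 4.04 to 4.85 and 4.64, and *Cdh5* to *Jam2* from 26.5 and 16.6 to 39.9 and 27.1. These ratios rest on 2 libraries a group and were not tested. They were also not corrected for GC content and length. With that correction the log2 fold change of *Cldn5* was −0.59 against −0.82, and that of *Tjp1* 0.14 against 0.35. Whether *Cldn5* and *Tjp1* would still change places with it was not tested.

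**Figure D3:**
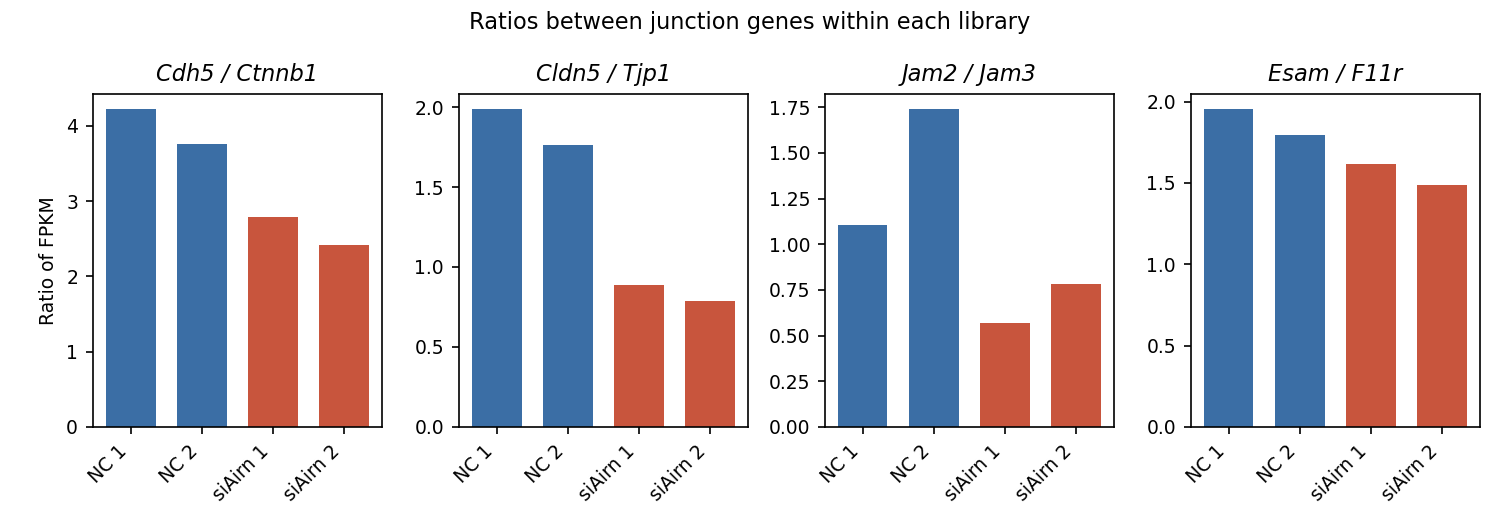
Ratio of FPKM of 4 pairs of junction genes within each library (bars from 0; blue, NC 1 and 2; red, labelled siAirn 1 and 2). Every ratio is lower in both red bars than in both blue bars, and the ratio of *Cldn5* to *Tjp1* falls from 1.76 or more to 0.886 or less.

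Markers of endothelium as a whole moved with the lower genes. Of 17 pan-endothelial markers 10 were called lower and none higher, with a median log2 fold change of −0.50 in edgeR. It was 13 and 0 at an unadjusted p under 0.05, and 12 and 0 by DESeq2. With the correction for GC content and length it was 7 and 0. The summed level of the 17 markers was 9916 and 9578 CPM in NC against 7370 and 6432 CPM in si*Airn*. *Pecam1*, an adhesion molecule at endothelial contacts, fell by 0.53 on the log2 scale (adjusted p = 0.0190), close to the value for *Cdh5*. Of 12 LSEC markers 9 were called lower, and of 11 tested Kupffer cell and macrophage markers 7 (12 and 2 with the correction for GC content and length), from summed levels of 243 and 310 CPM in NC to 186 and 156 CPM in si*Airn*. In these bulk samples fewer cells of a type and less RNA per cell cannot be told apart. Of 9 genes of capillary and continuous endothelium, 2 of them also pan-endothelial markers, 3 were called higher and 4 had a log2 fold change under 0. Their summed level was 2055 and 1756 CPM in NC and 1846 and 1431 CPM in si*Airn*, which overlap, and the median log2 fold change was 0.61 for the 9 in edgeR and −0.19 for the 5 that passed the FPKM filter in limma on log2(FPKM + 1). No marker of these lists was at 0 in all libraries. Of 8 cholangiocyte genes, 4 tested lymphocyte and neutrophil genes and 5 tested mesothelial and lymphatic genes, edgeR's quasi-likelihood test without a covariate and DESeq2 called none, and 2, 1 and 1 had an unadjusted p under 0.05 in the former. The correction for GC content and length called 1 cholangiocyte gene higher, and the likelihood-ratio test 1 lymphocyte and neutrophil gene.

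Set against the mean of the 17 pan-endothelial markers in the same library, which changed by −0.44 on the log2 scale, the lower genes parted. *Esam* had log2 ratios of 0.88 and 0.94 in NC and 0.84 and 1.00 in si*Airn*, which overlapped, and a mean difference of 0.0084. *Cdh5* had 3.40 and 3.39 in NC and 3.22 and 3.30 in si*Airn*, which differ by −0.13 without overlap. Against *Pecam1* alone *Cdh5* overlapped between groups, at 0.68 and 0.63 in NC and 0.59 and 0.64 in si*Airn*, whereas *Esam* did not overlap, at −1.84 and −1.82 in NC and −1.80 and −1.66 in si*Airn*. The differences stayed larger for *Cldn5* (−0.37) and *Jam2* (−0.77), again without overlap, and against *Pecam1* alone they were −0.28 and −0.68. The other 5 genes were higher on this scale, by 0.80 (*Tjp1*), 0.73 (*Ocln*), 0.50 (*Ctnnb1*), 0.28 (*F11r*) and 0.27 (*Jam3*). On this scale *F11r* and *Jam3* lie above 0 and in CPM below 0, so their direction depends on the reference. These differences are descriptions, and the part of the marker lists in the results was not tested.

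The wider junction lists, 119 tested genes besides the 9, held 14 genes called lower and 16 called higher. In all 25.2% were called, beside the background of 16.8%, with a median log2 fold change of −0.02. With the correction for GC content and length, 14 of 118 tested genes were called lower and 6 higher. Contact molecules outside the junction strands were called in 1 direction, 4 of 12 as lower and none as higher (7 and 0 at an unadjusted p under 0.05, and 5 and 0 by DESeq2), and 5 of the 12 also belong to the pan-endothelial markers. *Icam2* (an adhesion molecule that endothelium carries without inflammation) fell by 0.76, *Clec14a* (an endothelial lectin of cell contacts) by 0.55, and *Pecam1* as given above.

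Of 28 tested regulators of the junctions, 4 were called lower and 4 higher, and with the correction for GC content and length 5 were called lower and 1 higher. *Plvap*, which forms the diaphragms of endothelial pores, was the most changed, at 428 and 519 CPM in NC and 212 and 236 CPM in si*Airn* (log2 fold change −1.08, adjusted p = 0.00496). *Rasip1*, an effector of Rap1 in vessel tube formation, fell by 0.68 (adjusted p = 0.00805) and *Tie1*, a receptor that works with the angiopoietin receptor, by 0.58 (adjusted p = 0.0168), and *Rasip1* shares exons with neighbouring genes. Among the higher genes were *Rapgef2* (0.42) and *Rapgef6* (0.40), which activate Rap1, and *Krit1* (0.34), a Rap1 effector that stabilises junctions.

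The Wnt side of β-catenin was read from its target genes and its partners. Of 7 tested target genes edgeR and DESeq2 called none at an adjusted p under 0.05, with 2 of 7 at an unadjusted p under 0.05 in edgeR and 3 called higher with the replicate block, and *Axin2* (the usual reporter of the pathway) had 26 and 26 counts in NC and 17 and 27 counts in si*Airn*, which overlap. Of 12 tested genes that degrade β-catenin or bind it in the nucleus, 2 were called (16.7%, beside the background of 16.8%). *Tcf7l1* (a TCF factor that mostly represses) fell by 0.47 (adjusted p = 0.00993) and *Apc* (a scaffold of the degradation complex) rose by 0.35 (adjusted p = 0.0222). The 3 tested connexins, the proteins of gap junctions, were not called by edgeR or DESeq2, and none had an unadjusted p under 0.05.

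**Figure D4:**
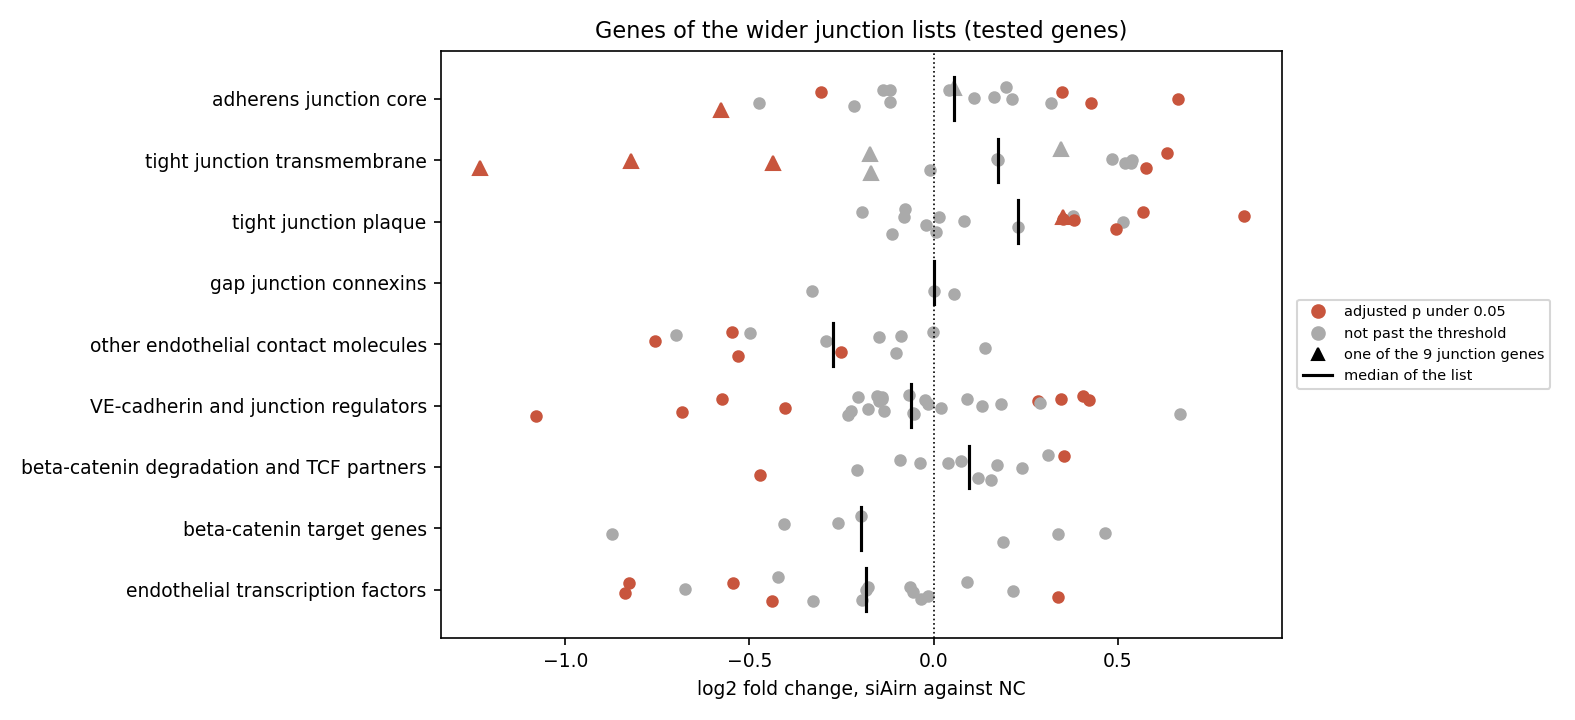
Log2 fold change between libraries labelled siAirn and NC for each tested gene of 9 junction lists (points, fitted values from 2 libraries a group; red, adjusted p under 0.05; triangles, the 9 genes described here; black bars, list medians). All called genes of the tight junction plaque list lie right of 0 and all called contact molecules left of 0, while the transmembrane list has called genes on both sides.

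The 5 calls were also examined with each library left out. Without NC replicate 1 only *Jam2* was still called (log2 fold change −1.47, adjusted p = 0.0435), and the adjusted p of *Cldn5*, *Tjp1*, *Cdh5* and *Esam* went to 0.0607, 0.0810, 0.0894 and 0.0992, with log2 fold changes of −0.73, 0.36, −0.49 and −0.38. Without NC replicate 2 none of the 9 was called (adjusted p from 0.0741 for *Cldn5* to 0.114 for *Tjp1* among the 5 genes, and 0.0861 for *Jam2*), and 5 of the 9 had an unadjusted p under 0.05. Their log2 fold changes were then −0.92 (*Cldn5*), 0.34 (*Tjp1*), −0.66 (*Cdh5*), −0.49 (*Esam*) and −0.96 (*Jam2*). Calls were lost across the whole table, since these fits called 40 and 0 of all genes. They have 1 residual degree of freedom and assume that the lone NC library varies like the others. Leaving out either si*Airn* library kept all 5 calls, and in none of the 4 fits did the direction of any of the 9 genes change.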

How the data were processed

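RNA-seq of 4 LSEC libraries was analysed, grouped by their labels as NC and si*Airn* (2 each). The authors deposited estimated counts per gene and library, which are not normalized (76.5% to 76.8% of them are whole numbers), and length-scaled values without a named unit. The latter were taken to be FPKM, as deposited, since their relation to count, length and library total is that of FPKM. Per the labels, BWA, Bowtie2 and RSEM were used and the build was hg19, a human build, so annotation here (GENCODE M21, GRCm38) was joined by gene and not by coordinates of the files. Versions, filters and the use of strand are not given in the sources used here. The authors' group means were not used.

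Estimated counts were rounded and tested two-sided in R 4.3.3 with edgeR 4.0.16 (TMM, factors 0.985 to 1.02, filterByExpr, glmQLFit and glmQLFTest, no covariate), with Benjamini-Hochberg adjustment over 13628 genes, and standard errors were taken from the F statistic. Common biological variation was 0.0754. Log2 ratios to markers used CPM with an offset of 0.5. GC content and length came from the longest transcript (94.7% of tested genes). Shared exonic bases were read from the same annotation.

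Alternatives were DESeq2 1.42.0, upper-quartile scaling, the likelihood-ratio test of edgeR, other filters (1 count in any library, or 10 in every library), limma 3.58.1 on log2(FPKM + 1) and log2(FPKM + 0.1) for genes with a mean of at least 1 FPKM or without that filter, a replicate block, natural splines (5 degrees of freedom) of GC content and length per library, other thresholds, and leaving out each library. The script was tested on simulated data.

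Members and lists were chosen with earlier results of these data known. Genes named are the 9 members, up to 3 called increases and 3 decreases per junction list (no overlap, mean of at least 5 CPM), fixed partners of the members, and *Airn*; 1 of the partners is not reported here. *Prkci*, *Mpp5*, *Erg* and the claudins not called were named after their values were seen.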

Additional observations from a re-analysis of the deposited data

How the results depend on the processing

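No log2 fold change in CPM or FPKM of the 9 genes changed sign under an alternative. Against pan-endothelial markers *Esam*, which overlapped between groups, had a difference of −0.02 without *Eng*, *Emcn* and *Sox18*, against 0.0084 with them. Of 133 values of single genes under the alternatives, 116 stayed on their side of the threshold, 16 lost a call and 1 gained one. With DESeq2, upper-quartile scaling, the other count filters, the likelihood-ratio test and limma on filtered FPKM, 5 of the 9 were called as before. Of the Kupffer cell markers DESeq2 called 4 lower and limma on log2(FPKM + 1) 3, against 7 in edgeR. With limma, the median log2 fold change of the 9 genes was −0.26 (log2(FPKM + 1), −0.2643) and −0.27 (log2(FPKM + 0.1), −0.2662), since *Ocln* lies under that filter. With limma and no filter, 0 of all genes, 0 of the 9 and 0 of the wider junction lists were called, while 4418 genes and 7 of the 9 had an unadjusted p under 0.05. The correction for GC content and length called 1024 genes and 3 of the 9. The study's threshold was met by 1358 genes and 3 of the 9, and an adjusted p under 0.01 by 343 genes, 2 of the 9 and 8 of the wider lists.

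The groups share only replicate numbers, with a correlation of 0.27 between the deviations of same-numbered libraries over 2 pairs, so the numbers were not taken as pairs. With the replicate block 4841 genes and 62 of the wider lists were called. *Ptprb*, *Ctnnd1* (adjusted p = 0.0199) and *F11r* were called as well. *F11r* had an adjusted p of 0.0165 (range over its alternatives other than leaving out a library, 0.0165 to 0.214). With the replicate block and the GC and length correction together, 4070 genes and 62 of the wider lists were called. *Tjp1* had an adjusted p of 0.0171, and the plaque list had 9 genes called higher and 3 lower. *Cgnl1* was called lower in that fit (log2 fold change −0.29, adjusted p = 0.00129), and *Ctnnd1* was not called (adjusted p = 0.963). The regulators then had 15 lower and 3 higher, and 12 and 6 with the block alone.

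Leaving out 1 library gave between 0 (without NC replicate 2, with 3106 genes at an unadjusted p under 0.05) and 2410 called genes, between 0 and 5 of the 9, between 0 and 41 of the wider lists, and a median of the 9 between −0.25 (−0.2543) and −0.16 (−0.1583). With 2 libraries a group, 1 residual degree of freedom was left in these fits. Against pan-endothelial markers without *Eng*, *Emcn* and *Sox18*, *F11r* overlapped between groups.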
